A study of Sus scrofa with 32 samples.

Results

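Osteopontin (SPP1) and 7 genes of bone formation and bone turnover (IBSP, MMP13, MMP9, ALPL, RUNX2, SP7 and DMP1) were followed through the fetal loin of 32 pigs. The members were the table's loci that carry one of these 8 symbols, with the locus of the highest mean taken where a symbol occurs more than once, and they make 8 of the 30413 loci in the table. The study sequenced messenger RNA from the longissimus dorsi, the long muscle of the back, of fetuses taken at day 77 of gestation. It set 16 crossbred fetuses (pure Iberian dam, Large White sire) against 16 pure Iberian fetuses (Iberian dam and sire), with 8 females and 8 males in each genotype. All dams were pure Iberian sows inseminated with mixed semen, so both genotypes could grow in 1 uterus. The first digits of a fetus name were read as its sow, which gives 7 sows, and 5 of these carried both kinds of fetus. Littermates are not independent, and the body weight class of the fetuses is not in the labels used here.

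Bone is laid down by osteoblasts and removed by osteoclasts, and their genes are hardly used by muscle fibres. RUNX2 and SP7 encode the transcription factors that commit a cell to the osteoblast fate. ALPL encodes the tissue-nonspecific alkaline phosphatase that frees phosphate for mineral. SPP1, IBSP (bone sialoprotein) and DMP1 (dentin matrix protein, a product of osteocytes) encode acidic, mineral-binding proteins of 1 family, the SIBLING proteins. MMP13 encodes a collagenase of osteoblasts and hypertrophic cartilage, and MMP9 a gelatinase made in quantity by osteoclasts and by neutrophils. Osteopontin differs from the rest in that macrophages and injured muscle also make it, which is why the macrophage genes CD68 and CSF1R (the receptor of colony stimulating factor 1) were set beside it.

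Values are FPKM, fragments scaled to transcript length and to the mapped fragments of the library. The table gives no read counts, so the depth behind a value was estimated only relative to the other libraries, between 0.691 and 1.42 times their geometric mean, with a median of 1.06 in crossbred and 0.93 in Iberian fetuses. The number of loci above 0.5 FPKM ranged from 14921 to 16877 per library. The label of the tissue was borne out by its markers: the summed FPKM of 8 skeletal muscle genes lay between 7944 and 24989 in crossbred fetuses and between 6473 and 24380 in Iberian fetuses. The lowest sum of the 32 was that of the Iberian female 1417F3L, and another Iberian female, 1410F5L, had 8058 FPKM. In whole tissue, a change in the number of cells of a type and a change of RNA per cell cannot be told apart.

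SPP1, IBSP and DMP1 lie side by side on the minus strand of chromosome 8 (build Sscrofa11.1), within 241613 bases. RefSeq places SPP1 at 131077786 to 131085334, IBSP at 131208281 to 131222048 and DMP1 at 131285238 to 131319398, with MEPE, a further member of the family, at 131186563 to 131198418 between the first pair. MMP13 lies on chromosome 9 (33549003 to 33616700, minus strand), MMP9 on chromosome 17 (48179690 to 48186782, plus strand), ALPL on chromosome 6 (79589695 to 79649646, plus strand), RUNX2 on chromosome 7 (40106581 to 40353304, plus strand) and SP7 on chromosome 5 (18541368 to 18566668, minus strand). The DMP1 row is merged with an unnamed Ensembl gene, and DSPP (131318187 to 131444274) overlaps DMP1, so its level cannot be given to DMP1 alone. The only row with the CD68 symbol is a locus merged with EIF4A1, TNFSF12, TNFSF13 and others, so it does not measure CD68 alone. The libraries did not record strand, so overlapping genes on opposite strands cannot be told apart.

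The stretches of 250 bases before the RefSeq transcript start are shown for SPP1, IBSP and MMP9, because the data set SPP1 apart from the other pair. Each is written 5′ to 3′ on the strand of the gene, and capitals mark matches, on either strand, to 4 short motifs: TGTGGT (RUNX), TGANTCA (AP-1), TATAA (TATA) and GAGGAA (the core bound by PU.1, a factor of macrophages). For SPP1 the window lies inside the locus the authors assembled.
SPP1, chr8:131085335-131085584, minus strand: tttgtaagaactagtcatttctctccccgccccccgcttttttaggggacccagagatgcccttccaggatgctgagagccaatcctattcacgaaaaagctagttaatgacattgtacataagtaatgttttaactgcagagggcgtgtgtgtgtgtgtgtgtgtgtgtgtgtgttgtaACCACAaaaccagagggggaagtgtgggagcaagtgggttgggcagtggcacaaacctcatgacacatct
IBSP, chr8:131222049-131222298, minus strand: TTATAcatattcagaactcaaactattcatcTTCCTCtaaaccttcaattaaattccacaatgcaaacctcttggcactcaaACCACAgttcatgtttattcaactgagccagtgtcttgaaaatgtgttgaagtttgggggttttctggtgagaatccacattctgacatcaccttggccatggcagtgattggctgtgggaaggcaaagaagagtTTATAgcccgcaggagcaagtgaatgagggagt
MMP9, chr17:48179440-48179689, plus strand: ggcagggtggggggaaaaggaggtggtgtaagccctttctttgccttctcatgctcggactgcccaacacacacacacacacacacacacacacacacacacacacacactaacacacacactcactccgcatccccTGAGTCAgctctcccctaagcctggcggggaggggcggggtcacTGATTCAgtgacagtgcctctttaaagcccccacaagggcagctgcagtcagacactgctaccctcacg
SPP1 held 1 match to the RUNX motif, at positions -70 to -65 from the start, and no match to the other motifs. IBSP held 1 RUNX match (-168 to -163), 1 PU.1 core (-219 to -214) and a TATA match at -33 to -29 besides one at -250 to -246. MMP9 held AP-1 matches at -113 to -107 and -69 to -63, each read on both strands because the motif is its own reverse complement, and no RUNX match. Of the windows of the same length before 19556 protein-coding genes, 14.0% held the RUNX letters, 5.27% the AP-1 letters, 17.2% the TATA letters and 22.0% the PU.1 core, so single matches are common, and a match does not show that a factor binds.

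SPP1 was by far the most abundant of the 8 genes per length and the only one above 15 FPKM in every fetus. Its FPKM in the 16 crossbred fetuses had a lowest value of 17.3, a median of 36.9 and a highest of 55.7, against 32.1, 72.0 and 314 in the 16 Iberian fetuses. The genotypes overlapped, but 10 Iberian fetuses lay above the highest crossbred fetus and 5 crossbred fetuses lay below the lowest Iberian one. The crossbred mean was 39.3 ± 12.9 FPKM and the Iberian mean 97.7 ± 75.4 FPKM (SD, n = 16 for both). The tail belonged to Iberian fetuses, with 314 FPKM in 1417F3L, 213 in 1410F5L, 152 in 1404F5L and 140 in 1401F8L.

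SPP1 was lower in crossbred fetuses by the test across all loci. On the log2(FPKM + 0.5) scale limma gave a fold change of -1.08 ± 0.25 (standard error) with an adjusted p of 0.025, and a permutation test of SPP1 alone gave p = 0.00014 unadjusted. It was the 1 gene called of the 6 members tested, beside 227 of 16750 loci or 1.36% called over the whole table, where a call needs a fold of 1.3 or more and an adjusted p up to 0.05. In each of the 5 sows with both genotypes the crossbred mean was below the Iberian mean on the log2 scale, by -0.37 in sow 1340 to -1.51 in sow 1417. Several of these means are single fetuses: sows 1338 and 1340 had 1 Iberian fetus each, and sow 1404 had 1 crossbred fetus. In sow 1417 the 2 Iberian fetuses had 38.5 and 314 FPKM, and the 5 crossbred fetuses 17.3 to 55.7 FPKM, so the genotypes overlapped there. With the sow as a fixed block the log2 fold change was -1.01 with an adjusted p of 0.17, so the call was lost. SPP1 stayed called with the sow as a random effect. It also stayed called in the 5 sows with both genotypes alone, a fit without a sow term.

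The call was also lost without a few fetuses and in fits with the adipocyte or fibroblast mean. Without 1417F3L and 1410F5L the log2 fold change of SPP1 was -0.84 (adjusted p = 0.060 from limma), and without 1404F5L and 1404F1L, a setting chosen after seeing the data, it was -1.01 (adjusted p = 0.068 from limma). These fetuses also stood apart in markers: the summed FPKM of 11 adipocyte genes was 667 in 1417F3L and 380 in 1410F5L, against a crossbred median of 71.9 and an Iberian median of 84.9, and no gene of that list had a median of 0. The summed FPKM of 14 macrophage genes was 388 in 1417F3L and 196 in 1410F5L, with 60.9 to 250 FPKM in crossbred and 69.9 to 388 FPKM in Iberian fetuses. With the mean of the adipocyte genes in the fit, limma gave SPP1 -0.63 (adjusted p = 0.27), and with the mean of the fibroblast genes, added after seeing the data, -0.64 (adjusted p = 0.060 from limma). With CD68 and CSF1R in the fit it stayed called at -0.75 (adjusted p = 0.043 from limma), and so it did with the mean of the macrophage genes, added after seeing the data, at -0.89 (adjusted p = 0.014 from limma). The part of these cell types in the SPP1 difference was not tested beyond these fits.

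**Figure D1:**
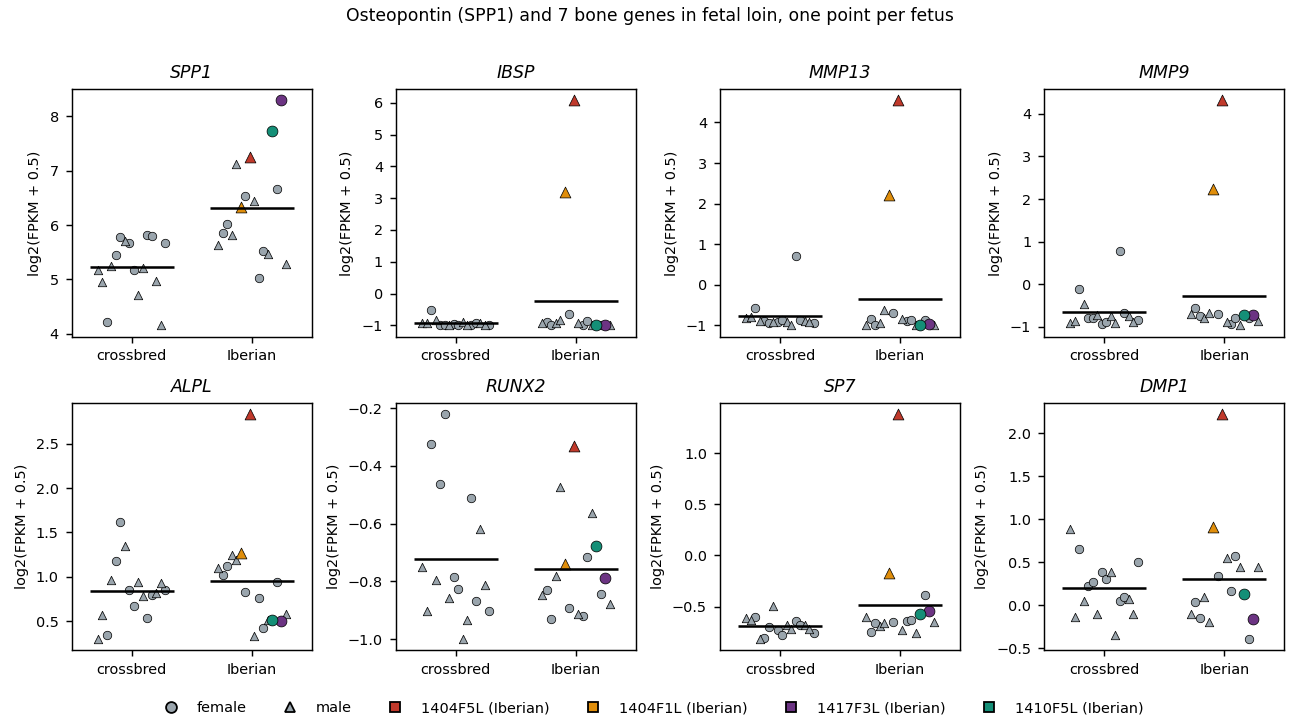
Level of each of the 8 genes in every fetus as log2(FPKM + 0.5), crossbred left and Iberian right, with circles for females, triangles for males and a bar at the group mean. SPP1 was lower in crossbred fetuses (log2 fold change -1.08), while IBSP, MMP13 and MMP9 were near the floor in all but 1404F5L and 1404F1L and, for the 2 metalloproteinases, 1417F1L.

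The bone genes had another pattern, in which 1 Iberian male, 1404F5L, held the highest level of 6 of the 8 genes. IBSP was at 67.0 FPKM in 1404F5L and at 8.74 FPKM in 1404F1L, an Iberian male of the same sow. In the other 30 fetuses it did not exceed 0.205 FPKM and was listed at 0 in 15. The 16 crossbred fetuses ranged to 0.205 FPKM with a median of 0.00783, and the 16 Iberian fetuses had a median of 0.0242. The 2 littermates together held 99.0% of the IBSP signal of all 32 libraries.

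MMP13 and MMP9 followed IBSP into the same 2 fetuses. MMP13 was at 22.8 FPKM in 1404F5L and 4.17 in 1404F1L, with a median of 0.0378 over the other 30, and MMP9 was at 19.4 and 4.20 FPKM in these fetuses, with a median of 0.0781 over the others. For both genes the next fetus was the crossbred female 1417F1L, with 1.12 FPKM of MMP13 and 1.22 FPKM of MMP9, where IBSP was listed at 0. That fetus had the highest summed FPKM of 15 cartilage genes, 396, against 63.3 for the crossbred median and 53.9 for the Iberian median.

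SP7, the osteoblast transcription factor, was at 2.1 FPKM in 1404F5L and 0.389 in 1404F1L, and lay between 0.0669 and 0.262 FPKM in the other 30. DMP1 was at 4.17 and 1.38 FPKM in the 2 littermates, and its merged locus reached up to 1.35 FPKM in the others. ALPL was at 6.64 FPKM in 1404F5L and 1.91 in 1404F1L, but the crossbred fetuses 1340F9L (2.56 FPKM) and 1401F1L (2.04 FPKM) came between them. ALPL was measurable in every fetus, with medians of 1.28 FPKM (crossbred) and 1.34 FPKM (Iberian). RUNX2 stayed below 0.36 FPKM throughout: its highest value was 0.358 in 1340F9L, followed by 0.30 in the crossbred female 1338F6L and 0.295 in 1404F5L.

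The step between the 2 littermates differed by gene. Levels in 1404F5L exceeded those in 1404F1L by 7.67 times for IBSP, 5.48 for MMP13, 5.41 for SP7, 4.62 for MMP9, 3.47 for ALPL, 3.03 for DMP1, 2.99 for RUNX2 and 1.90 for SPP1. The other 3 fetuses of this sow did not share the pattern, with IBSP listed at 0 in the crossbred 1404F3L, and at 0.145 FPKM in 1404F2L and 0.0241 FPKM in 1404F7L, both Iberian. SPP1 in this litter was 35.7 FPKM in the crossbred 1404F3L, against 152 FPKM in 1404F5L, 79.7 in 1404F1L, 92.4 in 1404F2L and 87.0 in 1404F7L. Thus 1404F1L, which ranked 2 of 32 for IBSP, had less SPP1 than 1404F2L and 1404F7L.

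Other genes of bone rose to their highest level in 1404F5L as well, although not the whole list. Of 22 further osteoblast and bone matrix genes with a locus, 7 were highest in 1404F5L (31.8%), as were 5 of 11 osteoclast genes (45.5%), 2 of 15 cartilage genes and 0 of 18 macrophage genes, beside 2.09% of all 16750 loci. The list counts include genes below the minimum of 0.5 FPKM, whereas the 16750 loci all passed it. Among genes that passed it, 3 of 15 osteoblast genes (IFITM5, OMD and SMPD3), 1 of 7 osteoclast genes (ACP5) and 0 of 11 cartilage genes were highest in 1404F5L. Among the osteoblast genes, IFITM5, a membrane protein of mineralizing osteoblasts, had 8.74 FPKM in 1404F5L against at most 2.31 in the other 30. SOST, the osteocyte gene of sclerostin, had 0.508 FPKM and MEPE 0.0885, against at most 0.0787 and 0.0292 in the other 30. DLX5 had 0.694 FPKM and SMPD3 1.84 FPKM there, against at most 0.147 and 0.800.

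The osteoclast genes were led by ACP5, the tartrate-resistant acid phosphatase. ACP5 was at 43.1 FPKM in 1404F5L and 9.57 in 1404F1L, with a median of 1.47 in the other 30, but it also reached 20.5 FPKM in another fetus. ATP6V0D2, a proton pump subunit, was at 1.35 and 0.229 FPKM in the 2 littermates and at most 0.0312 in the other 30. DCSTAMP (0.246 FPKM), OCSTAMP (0.141 FPKM, against at most 0.129 in the other 30) and OSCAR (0.711 FPKM) were also highest in 1404F5L. The other osteoclast genes with a locus, NFATC1, TCIRG1, CLCN7, CALCR, ITGB3 and TNFRSF11A, were not highest there.

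Cartilage genes split. COL10A1, the collagen of hypertrophic cartilage, was at 3.85 FPKM in 1404F5L and 1.33 in 1404F1L against at most 0.087 elsewhere, and IHH was highest in 1404F5L at 0.266 FPKM. COL2A1, the main cartilage collagen, was instead at 125 FPKM in 1404F1L and 41.9 in 1404F5L, and reached 210 FPKM in 1 of the other 30 fetuses. The abundant matrix genes COL1A1, COL1A2 and SPARC, which fibroblasts also express, were 1.64, 1.41 and 1.38 times the median of the other 30 in 1404F5L and were higher in other fetuses. COL1A1 is listed at 0 in 1417F3L, where COL1A2 was not, so that value may be a failed estimate.

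All loci with a symbol and a mean above 0.5 FPKM, listed or not, were ranked by their level in 1404F5L relative to the highest of the other 31 fetuses. This fetus was chosen for having the most IBSP, so the high place of IBSP follows from the choice. Among the 10 symbols that led this ranking were IBSP (7.67 times), MMP13 (5.48), MMP9 (4.62), IFITM5 (3.79), S100A4 (3.34) and DMP1 (3.03). The remaining 4 were the small RNA genes SNORA43, SNORA31, U6 and SNORA55, of which the leading 3 were listed at 0 in every other fetus. Genes below that mean did not enter, among them ATP6V0D2 (5.90 times), SP7 (5.41), SOST (5.22) and DLX5 (4.73). IBSP, MMP13 and MMP9 entered through 1404F5L and 1404F1L, with at most 0.205, 1.12 and 1.22 FPKM in the other 30 fetuses.

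Of the liver-type genes 1 of 8 with a locus, SERPINA1, was highest in this fetus, as was their sum: the summed FPKM of 7 such genes was 298 in 1404F5L and 232 in 1404F1L, with 38.1 to 240 in crossbred and 45.7 to 298 in Iberian fetuses. The adipocyte sum was 270 FPKM in 1404F5L and 258 in 1404F1L, above both group medians. The muscle genes were at 17544 and 12453 FPKM in these fetuses, close to or above the Iberian median of 12923. Whether bone tissue was taken with the muscle was not tested.

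**Figure D2:**
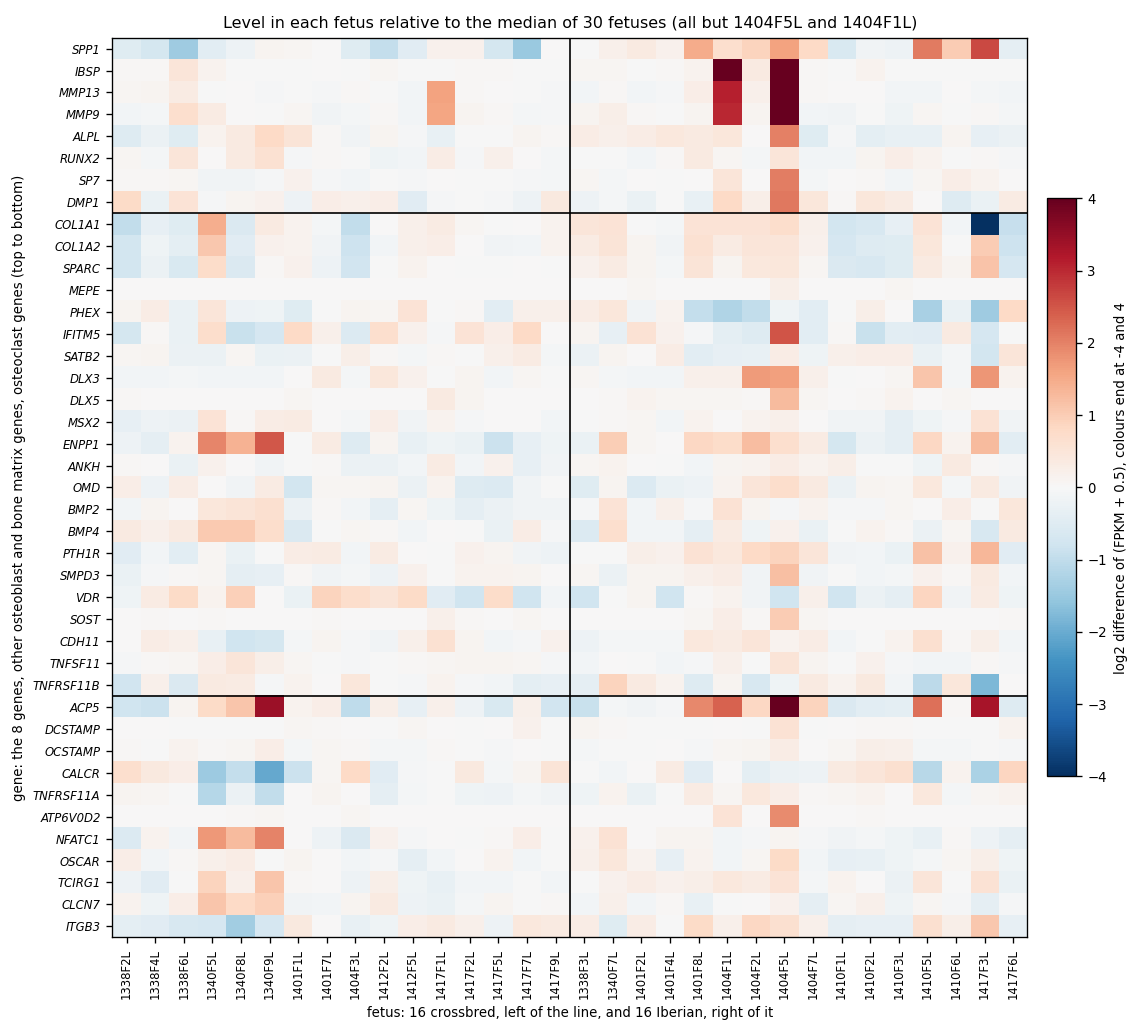
Each cell is the log2 difference of (FPKM + 0.5) between 1 fetus (columns, crossbred left and Iberian right) and the median of the 30 fetuses other than 1404F5L and 1404F1L, for the 8 genes, 22 further osteoblast and bone matrix genes and 11 osteoclast genes. The columns of 1404F5L and, more weakly, 1404F1L are red for IBSP, MMP13, MMP9, SP7, DMP1 and ACP5, whereas SPP1 is reddest in 1417F3L.

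Between the genotypes no bone gene was called by limma. The paper, which used Cuffdiff, reports IBSP among its largest genotype differences, higher in Iberian fetuses. The limma log2 fold changes of crossbred against Iberian fetuses were -0.70 for IBSP (standard error 0.47, adjusted p = 0.46), -0.42 for MMP13 (0.38, 0.60) and -0.38 for MMP9 (0.36, 0.62). IBSP, MMP13 and MMP9 passed the minimum of 0.5 FPKM only through the Iberian mean: without 1404F5L, MMP13 and MMP9 fell below it, and without 1404F5L and 1404F1L so did IBSP. ALPL and DMP1 each gave -0.11 (limma, adjusted p = 0.78), and both turned to 0.02 without 1404F5L. RUNX2 and SP7 were below the minimum and not tested across loci. Each of the 8 members was also permuted alone, without adjustment. SP7 then differed by -0.21 on the log2 scale with an unadjusted permutation p of 0.030, and RUNX2 by 0.04 with p = 0.63. The SP7 medians were 0.119 FPKM (crossbred) and 0.138 FPKM (Iberian). Its highest values were 2.1 FPKM in 1404F5L and 0.389 FPKM in 1404F1L, and it was not tested without these fetuses.

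Fetal sex called none of the members. In crossbred fetuses, SPP1 had a lowest value, median and highest value of 18.2, 50.4 and 55.7 FPKM in 8 females, against 17.3, 33.1 and 52.1 FPKM in 8 males (log2 fold change 0.43, standard error 0.23, adjusted p = 0.37 from limma), and the sexes overlapped. In Iberian fetuses the values were 32.1, 78.4 and 314 FPKM in females against 38.5, 67.7 and 152 FPKM in males (log2 fold change 0.29, standard error 0.43, adjusted p = 1.00 from limma). Of the members, 0 of 3 tested were called in crossbred and 0 of 6 in Iberian fetuses, beside 0.125% and 0.116% of all loci. In Iberian fetuses IBSP, MMP13 and MMP9 passed the minimum only through the males 1404F5L and 1404F1L. Without these 2 fetuses, a setting chosen after seeing the data, 3 members were tested. The Iberian count is therefore no evidence that sex leaves these 3 genes alike. The paper, which used Cuffdiff, reports MMP13 as lower in Iberian females. The test of a sex effect that differs between genotypes called 0 of 17345 loci (0%) in limma, with 850 at an unadjusted p under 0.05, and gave SPP1 a difference of 0.14 (standard error 0.51, adjusted p = 0.95).

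Of the 9 genes set beside SPP1, CSF1R and the CD68 locus passed the adjusted threshold over the 32 fetuses, and none of the 7 bone genes did. But IBSP, MMP13, MMP9, RUNX2 and SP7 lay below 0.5 FPKM in most fetuses, where values can rest on few reads. A weak correlation of these genes therefore does not decide whether SPP1 follows them. Spearman's rank correlation with SPP1 was 0.59 for CSF1R (permutation p = 0.00054, adjusted p = 0.0049) and 0.50 for the CD68 locus (permutation p = 0.0039, adjusted p = 0.018), with Pearson's r of 0.64 (permutation p = 7e-05, adjusted p = 0.00063) and 0.58 (permutation p = 0.00051, adjusted p = 0.0023) on the log2 scale. These are 2 of 9 relations computed, and adjusted values are over the 9. For ALPL the rank correlation was 0.25 (permutation p = 0.17, adjusted p = 0.30) and r 0.24 (permutation p = 0.17, adjusted p = 0.22). For RUNX2 the rank correlation was 0.15 (permutation p = 0.41, adjusted p = 0.61) and r 0.12 (permutation p = 0.53, adjusted p = 0.60). The bone genes nearest to the threshold were MMP9, with a rank correlation of 0.41 (permutation p = 0.020, adjusted p = 0.061), and SP7, with 0.32 (permutation p = 0.075, adjusted p = 0.17).

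For the other 5 bone genes 1404F5L and 1404F1L were the 2 fetuses farthest from the median, and the relation was taken over the other 30 as well. For DMP1 only 1404F5L stood apart, since 1404F1L (1.38 FPKM) was close to the next fetus (1.35 FPKM). The rank correlation with SPP1 was then -0.07 for IBSP (permutation p = 0.72, adjusted p = 0.80), -0.05 for MMP13 (p = 0.80, adjusted p = 0.80) and 0.33 for MMP9 (p = 0.077, adjusted p = 0.23). It was 0.20 for SP7 (permutation p = 0.28, adjusted p = 0.41) and -0.29 for DMP1 (p = 0.12, adjusted p = 0.28). Pearson's r over these 30 was -0.16 for IBSP (permutation p = 0.39, adjusted p = 0.58), -0.01 for MMP13 (p = 0.96, adjusted p = 0.99), 0.00 for MMP9 (p = 0.99, adjusted p = 0.99), 0.36 for SP7 (p = 0.048, adjusted p = 0.15) and -0.29 for DMP1 (p = 0.12, adjusted p = 0.22). The 2 fetuses with the most SPP1, 1417F3L and 1410F5L, had IBSP listed at 0 in both. Without the 2 fetuses farthest from the median of the partner gene, ALPL gave an r of 0.04 and RUNX2 an r of 0.32, CSF1R an r of 0.47 (permutation p = 0.0082, adjusted p = 0.037) and a rank correlation of 0.51 (adjusted p = 0.038), and the CD68 locus an r of 0.48 (adjusted p = 0.037) and a rank correlation of 0.46 (adjusted p = 0.052).

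The relation with CSF1R and the CD68 locus passed the threshold within the Iberian fetuses and not within the crossbred ones. Within the 16 crossbred fetuses the rank correlation was 0.20 for CSF1R (permutation p = 0.46, adjusted p = 0.88) and 0.00 for the CD68 locus, whereas within the 16 Iberian fetuses it was 0.79 (permutation p = 0.0005, adjusted p = 0.0028) and 0.78 (permutation p = 0.00062, adjusted p = 0.0028). The difference between the genotypes in this relation was not tested, and SPP1 ranged less widely in crossbred fetuses. Other macrophage genes had higher rank correlations with SPP1 in crossbred fetuses, among them CTSS (0.68, its merged locus), MRC1 (0.63) and AIF1 (0.54). The median over 16 macrophage genes was 0.27 in crossbred and 0.80 in Iberian fetuses, beside 0.02 and 0.53 over 15 other osteoblast genes. Over deviations from the sow mean, permuted within sows, the rank correlation was 0.61 for CSF1R (adjusted p = 0.0058) and 0.60 for the CD68 locus (adjusted p = 0.0058), and SP7 then reached 0.49 (adjusted p = 0.029). Without 1417F3L and 1410F5L the rank correlation was 0.51 for CSF1R (adjusted p = 0.039) and 0.41 for the CD68 locus (adjusted p = 0.075). In that setting Pearson's r passed the threshold for 7 of the 9 relations, among them IBSP at 0.46, MMP13 at 0.47, ALPL at 0.51 and SP7 at 0.48, while no bone gene passed by rank correlation, and 1404F5L was then the fetus with the most SPP1. Whether the correlation with CSF1R differs from that with a bone gene was not tested.

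**Figure D3:**
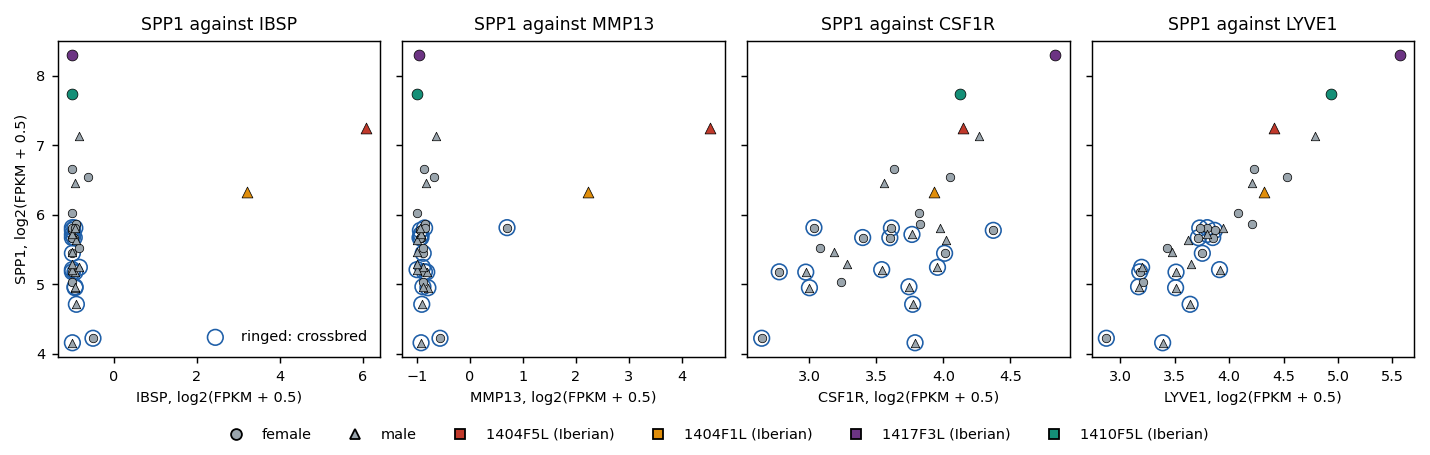
SPP1 (vertical) against IBSP, MMP13, CSF1R and LYVE1 (horizontal), all as log2(FPKM + 0.5), 1 point per fetus, with rings around crossbred fetuses. Fetuses high in IBSP and MMP13 (1404F5L, 1404F1L) are not the 2 highest in SPP1 (1417F3L, 1410F5L), although they ranked 3 and 8 of 32 for SPP1. SPP1 and LYVE1 are ordered alike (rank correlation 0.90).

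Some macrophage genes lay closer to SPP1 than CSF1R did, and others lay farther, down to 0.09 for GPNMB among those that passed the minimum. Fibroblast and adipocyte genes had medians close to that of the macrophage genes. As a description over the 32 fetuses, which share litters and tissue makeup, the median rank correlation with SPP1 was 0.56 over 16 macrophage genes, 0.61 over 8 fibroblast genes and 0.52 over 12 adipocyte genes. It was 0.09 over the 5 members that passed the minimum, 0.32 over 15 other osteoblast genes, 0.35 over 7 osteoclast genes and 0.03 over 11 cartilage genes, beside -0.03 over all 16749 other loci. Of these members, IBSP, MMP13 and MMP9 passed the minimum through 1404F5L and 1404F1L. Their medians in the other 30 fetuses were 0.00783, 0.0378 and 0.0781 FPKM. Ranks so near the floor carry little, so the value of 0.09 does not decide what SPP1 follows. A rank correlation over 0.5 was reached by 11 of the 16 macrophage genes, 7 of the 8 fibroblast genes and 4 of the 15 osteoblast genes, beside 6.12% of all loci. The highest among macrophage genes were those of CTSS (0.78, a locus merged with ARNT), the lipid receptor gene TREM2 (0.77) and the mannose receptor gene MRC1 (0.76). COL1A1 (0.44) and the fibroblast gene COL3A1 (0.465) fell short of 0.5, each listed above 0 in only 15 of the 16 Iberian fetuses. Without 1417F3L and 1410F5L they gave 0.55 and 0.57.

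The bone list members that lay closest to SPP1 were PTH1R (0.72), the receptor of parathyroid hormone, SPARC (0.67) and COL1A2 (0.65). All are expressed beyond bone. Among osteoclast genes they were ITGB3 (0.58), ACP5 (0.57) and TCIRG1 (0.47), and among cartilage genes COL9A3 (0.61), COL9A2 (0.43) and CNMD (0.33). The osteoblast gene IFITM5, which was highest in 1404F5L, had a rank correlation of -0.14 with SPP1, and PHEX, an endopeptidase gene of osteocytes, had -0.53.

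Of all loci with a symbol, LYVE1 had the highest rank correlation with SPP1, 0.90 over 32 fetuses. LYVE1 encodes a hyaluronan receptor of lymphatic vessels and of resident tissue macrophages. It was followed by RGL1 (0.88), SFRP1 (0.84), LY86 (0.84), LGALS3 (0.83), NPL (0.82), LUM (0.82), SFRP4 (0.82), NECAP2 (0.82) and CHST8 (0.81). LY86 and LGALS3 (galectin-3) are macrophage genes, LUM (lumican) encodes a matrix proteoglycan, and SFRP1 and SFRP4 encode secreted inhibitors of Wnt signalling. Within the crossbred fetuses the rank correlation was 0.69 for LYVE1, 0.77 for RGL1 and 0.77 for LUM, and within the Iberian fetuses it was 0.95, 0.90 and 0.89. The lowest rank correlation belonged to KCNN3 (-0.84), PPFIA4 (-0.82), the MYH7B locus (-0.81), NEB (-0.80) and SLC9A8 (-0.79). MYH7B and NEB, the gene of nebulin, belong to the sarcomere, and all 9 skeletal muscle genes listed had a rank correlation below 0 with SPP1.

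By rank correlation the genes most like the bone members were mostly others than bone genes. For IBSP, MMP13 and MMP9 this does not decide whether bone genes go with them. Their medians in the 30 fetuses without 1404F5L and 1404F1L were 0.00783, 0.0378 and 0.0781 FPKM. Their ranks, in the lists below and among the members, thus mostly order values near the floor. For IBSP the highest rank correlations were those of ZNF469 (0.67), a locus of AP1G2 and JPH4 (0.61), RIPPLY1 (0.60), MMP13 (0.58) and MKS1 (0.57), but 15 of the 32 IBSP values are ties at 0. For MMP13 they were SLC6A6 (0.62), HECTD2 (0.62), SPRY4 (0.59), MIA (0.59) and IBSP (0.58), and for MMP9 RARG (0.77), TCFL5 (0.70), DCAF12L2 (0.68), ELN (0.67) and COL9A3 (0.67). ALPL was most like SHISA4 (0.84), PDK2 (0.81), a locus of MGRN1 and NUDT16L1 (0.80), ZNF579 (0.80) and CMBL (0.79). The DMP1 locus was most like TRPM7 (0.83), LUC7L3 (0.82), RSRC2 (0.81), CD2AP (0.80) and a TNRC6A locus (0.79). Among the members, IBSP had a rank correlation of 0.58 with MMP13 and 0.53 with MMP9, and 0.49 and 0.43 over the 30 fetuses without 1404F5L and 1404F1L. ALPL and DMP1 had -0.22, and -0.47 over these 30.

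**Figure D4:**
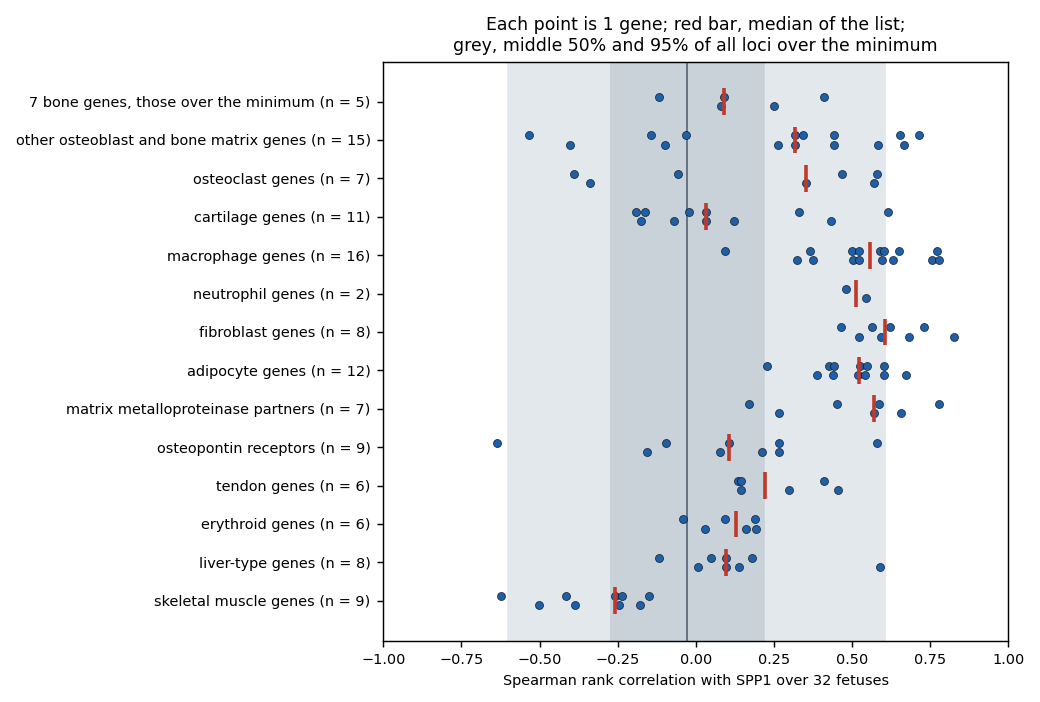
Spearman's rank correlation with SPP1 over 32 fetuses for each listed gene that passed the minimum (points), with the list median as a red bar and, in grey, the middle 50% and 95% of all loci. Macrophage (median 0.56), fibroblast (0.61) and adipocyte genes (0.52) lie to the right of the bone members (0.09). Of these members, IBSP, MMP13 and MMP9 were near the floor in most fetuses.

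All 9 genes of osteopontin receptors were tested for genotype and 0 were called, beside 1.36% of all loci. At that share, 0 calls among 9 genes says nothing about the receptors as a set. Their median log2 fold change was 0.12, beside 0.03 over all loci. ITGA9, an integrin chain that binds osteopontin after cleavage, had medians of 33.3 FPKM (crossbred) and 27.8 FPKM (Iberian), with a log2 fold change of 0.33 (limma, adjusted p = 0.19). ITGB3, the integrin chain that pairs with ITGAV, had medians of 8.25 and 11.06 FPKM in crossbred and Iberian fetuses (-0.39, adjusted p = 0.22), and ITGA4 medians of 20.6 and 14.4 FPKM (0.32, adjusted p = 0.30). CD44, the hyaluronan receptor that also binds osteopontin, had medians of 18.5 and 17.3 FPKM in crossbred and Iberian fetuses. With SPP1, ITGB3 had a rank correlation of 0.58 and ITGA4 of -0.64.

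Of 7 partners of the metalloproteinases tested, 1 was called, beside 1.36% of all loci. TIMP4, an inhibitor of metalloproteinases, was lower in crossbred fetuses, with 1.88, 4.24 and 5.92 FPKM as lowest, median and highest values, against 3.05, 6.00 and 12.0 FPKM in Iberian fetuses (log2 fold change -0.66, standard error 0.17, adjusted p = 0.045 from limma). The groups overlapped. The call lay close to the threshold: it was kept in 9 of 18 other settings and in 13 of 32 fits that left out 1 fetus, with log2 fold changes from -0.79 to -0.37, and with the sow as a block TIMP4 gave -0.62 (adjusted p = 0.11 from limma). MMP14 and MMP2, which unlike MMP13 and MMP9 were abundant throughout, had medians of 154 and 280.5 FPKM in crossbred fetuses, against 188 and 336 FPKM in Iberian fetuses, and were not called (adjusted p = 0.29 and 0.44 from limma). MMP14 had a rank correlation of 0.78 with SPP1 and MMP2 of 0.66.

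Of the other bone lists, 0 of 15 osteoblast, 0 of 7 osteoclast and 0 of 11 cartilage genes tested were called between the genotypes, beside 1.36% of all loci. At that share, 0 calls in lists so short, here and below, says nothing about a list. The median log2 fold changes were -0.12, -0.12 and 0.06. The smallest p values among osteoblast genes were those of PTH1R (-0.36, adjusted p = 0.17 from limma), ANKH (-0.12, 0.29) and VDR (0.36, 0.32). Among osteoclast genes they were those of TNFRSF11A (-0.29, adjusted p = 0.14 from limma), ITGB3 and CLCN7 (0.23, 0.29), and among cartilage genes those of COL11A2 (0.85, adjusted p = 0.24), COMP (0.66, 0.44) and COL9A1 (0.53, 0.55). Of the macrophage genes 0 of 16 were called, 13 had a negative fold change and the median was -0.18, with AIF1 (-0.51, adjusted p = 0.11 from limma), TREM2 (-0.36, 0.14) and MRC1 (-0.42, 0.19) at the smallest p values. CSF1R had a log2 fold change of -0.31 (adjusted p = 0.31) and the CD68 locus -0.14 (adjusted p = 0.54). The adipocyte genes had a median of -0.86 and 11 of 12 were negative, led by THRSP (-1.74, adjusted p = 0.052 from limma), CEBPA (-1.02, 0.11) and FABP4 (-0.77, 0.16), and 0 were called. The fibroblast genes LUM (-0.45, adjusted p = 0.14), POSTN (-0.56, 0.25) and DPT (-0.53, 0.26) were likewise not called, with a list median of -0.17. All 9 muscle genes had a positive fold change (median 0.30) and 0 were called, MYH3 with the smallest p (0.61, adjusted p = 0.093 from limma), MYH8 (0.47, 0.22) and MYOG (0.30, 0.29).

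Neutrophils are a further source of MMP9 in other settings. Of 8 neutrophil genes with a locus only S100A8 and S100A9 passed the minimum, neither was called (-0.29, adjusted p = 0.70, and -0.23, adjusted p = 0.62 from limma), and the summed FPKM of the list was 9.14 in 1404F5L and 9.88 in 1404F1L, against 7.00 in 1417F1L and a highest of 27.9 in a crossbred fetus. The crossbred median of this sum was 3.66 FPKM and the Iberian median 5.89 FPKM, so these 3 fetuses lay above both. In 1404F5L, MPO (0.287 FPKM) and PRTN3 (0.47 FPKM), 2 of the 8 genes and both below the minimum, each ranked 2 of 32. There S100A9, S100A8, LTF and CSF3R ranked 6, 7, 8 and 9, S100A12 ranked 19 and ELANE 20. The part of neutrophils in the MMP9 values was not tested. For the remaining lists, APOA1 (-0.60, adjusted p = 0.11 from limma), FGB (0.31, 0.50) and TTR (-0.15, 0.82) had the smallest p of 8 liver-type genes, AHSP (0.54, 0.39), ALAS2 (0.30, 0.66) and HBB (0.30, 0.70) of 6 erythroid genes, and TNMD (0.18, 0.77), SCX (-0.12, 0.81) and KERA (0.09, 0.85) of 6 tendon genes, and none of these genes was called.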

How the data were processed

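RNA was sequenced by the authors from the longissimus dorsi of 32 fetuses at day 77 of gestation. Per the submitters' notes, reads were trimmed with Trim Galore, aligned to Sscrofa11.1 with TopHat2 2.1.0 and Bowtie2 2.2.7.0 (the paper gives another Bowtie2 version), and assembled and quantified with Cufflinks 2.2.1 and Cuffdiff. The deposited table holds FPKM for 30413 loci, computed by the authors. Merged loci, loci at an exact 0 and unknown read counts limit single values, and no counting interval can be given. Relative depth was estimated from ratios of low values, 98.0% of 496 library pairs lying within 0.2 on the log2 scale.

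Loci whose mean exceeded 0.5 FPKM in 1 or both groups were fitted as log2(FPKM + 0.5), which understates changes of low genes, with limma 3.58.1 (trend) and statmod 1.5.0 in R 4.3.3. P-values were Benjamini-Hochberg adjusted over all loci, and genes called at 0.05 and a fold of 1.3 (no fold for the interaction). Comparisons were crossbred against Iberian, females against males within each genotype, and their interaction. Correlations used 100000 two-sided permutations. Replicates are separate fetuses, some of them littermates. Python 3.11.15 with pysam 0.24.0, matplotlib 3.10.9, SciPy 1.17.1, pandas 2.3.3 and numpy 2.4.6 served for the rest. The fit was tested on simulated data.

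The members and lists were chosen with earlier results of these data known. Named are the members, CD68, CSF1R, the 3 tested genes of smallest genotype p in each list and every called one, the 3 of highest rank correlation with SPP1 in the osteoblast, osteoclast, cartilage and macrophage lists, the symbols most like a member (10 highest and 5 lowest for SPP1, 5 highest for the others), and the 10 symbols most particular to the fetus with the most IBSP. Other genes of the lists were named after their values were seen. Of 158 list genes 149 had a locus, 11 of them merged and 4 found by Ensembl number. Alternatives were pseudocounts, minimums, median-of-ratios rescaling, the sow as a block or random effect, robust variances, covariates, subsets of sows, single members permuted, and leaving out fetuses. Promoter windows and motif shares come from the RefSeq annotation of Sscrofa11.1. The window of 1 member is not reported here.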

Additional observations from a re-analysis of the deposited data

Results flagged for a closer look

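In groups of 8 fetuses of 1 genotype and sex, a highest value was marked where its gap to the next exceeded Dixon's critical share of the group's range. Among 40 such groups of 10 genes, 13 were marked. The critical share is set for about 1 mark in 20 groups of normally spread values. Here it was applied to raw FPKM, often near 0, and the genes share the same fetuses, so the 13 cannot be held against that rate. In Iberian males, 1404F5L stood above the other 7 for IBSP (67.0 FPKM), MMP13 (22.8 FPKM), MMP9 (19.4 FPKM), ALPL (6.64 FPKM), DMP1 (4.17 FPKM) and SP7 (2.1 FPKM), so 6 of the 13 belong to 1 fetus. In crossbred females, 1417F1L stood apart for MMP13 (1.12 FPKM) and MMP9 (1.22 FPKM), and 1338F6L for IBSP (0.205 FPKM). In Iberian females, 1404F2L, of the same sow as 1404F5L, stood apart for IBSP (0.145 FPKM) and MMP13 (0.121 FPKM), and 1417F3L for CSF1R (28.0 FPKM). In crossbred males, 1340F5L stood apart for MMP9 (0.224 FPKM). Values under 0.5 FPKM can rest on few reads. SPP1 was marked in none of its 4 groups.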

How the results depend on the processing

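The count of members called between the genotypes was 1 and fell to 0 with the sow as a block, with the adipocyte covariate, without 1417F3L and 1410F5L, and, as added later, with the fibroblast covariate and without 1404F5L and 1404F1L. In the same order the log2 fold change of SPP1 was -1.01, -0.63, -0.84, -0.64 and -1.01. The count stayed at 1 with the sow as a random effect and in the sows with both genotypes only. Leaving out each fetus in turn gave SPP1 -1.17 to -0.95, always called, ALPL -0.16 to 0.02 and DMP1 -0.15 to 0.02, neither called. ALPL turned to 0.02 without 1404F5L, 0.05 without 1404F5L and 1404F1L and 0.04 with the CD68 and CSF1R covariate, and DMP1 to 0.02 and 0.07 without these fetuses and 0.04 with the sow block. With the sow block ALPL in crossbred females against males turned to -0.06 and the interaction of SPP1 to -0.20, and to -0.01 without 1404F5L.

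Loci called for genotype numbered 227 (142 higher and 85 lower in crossbred), 273 (140 and 133) after median-of-ratios rescaling, 48 with the sow block, 48 with the adipocyte, 85 with the fibroblast and 429 with the macrophage covariate, 85 without 1417F3L and 1410F5L, 113 without 1404F5L and 1404F1L, 126 without sow 1340, and 132 to 339 with 1 fetus left out. In crossbred females against males the sow block called 33 in place of 21. The causes were not tested.

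Of the 9 relations of SPP1, 2 passed by rank correlation, 0 in crossbred fetuses, and 1 without the 2 farthest fetuses, without 1417F3L and 1410F5L, and without 1404F5L and 1404F1L. CSF1R fell to 0.20 in crossbred fetuses. Against a positive rank correlation over 32, IBSP turned to -0.47 in crossbred fetuses, -0.07 in both settings without 1404F5L and 1404F1L and -0.09 over sow deviations, MMP13 to -0.15 and -0.05, and SP7 to -0.11 in crossbred fetuses. No paired analysis by replicate number was possible because the labels number the fetuses and pair none.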
